A study of Mus musculus with 2 samples.

Results

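The fibroblasts of 2 cultures of mouse embryonic stem (ES) cells carried transcripts of a set of inflammatory chemokines that were nearly absent from the ES cells beside them. The set held 5 genes, *Ccl2*, *Ccl7*, *Ccl20*, *Cxcl1* and *Cxcl5*, of the 54146 genes listed. The genes were chosen from these data, because they led the fibroblast-like group of cells in them. Their higher level in fibroblasts is therefore a description and was not tested. Each gene was found by its Ensembl identifier without the version, and all 5 were in both libraries.

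The data were 2 inDrop libraries, a droplet method in which each captured transcript carries a cell barcode and a unique molecular identifier (UMI). The wild-type library came from a single clone, and the Lin28a knockout library from a single clone made with CRISPR/Cas9 and a guide to the second exon of *Lin28a*, a gene for an RNA-binding protein of early development. Both were labelled as ICM-derived ES cells, and the methods name the ES line as E14. Both grew for 2 days on gelatin-coated plates in LIF/2i medium together with mouse embryonic fibroblast (MEF) feeder cells, and the wild-type library was labelled untreated. The genotype, preparation and number of the feeder cells were not given in the sources used here. Each condition was a single library, so no difference could be tested against replicates, and the intervals given are 95% intervals for counting error only.

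Chemokines are small secreted proteins that guide migrating leukocytes through receptors of the G protein-coupled family. The CC members of the set act mainly on monocytes (*Ccl2* and *Ccl7*, through CCR2) or on lymphocytes and dendritic cells (*Ccl20*, through CCR6), and the CXC members *Cxcl1* and *Cxcl5* attract neutrophils through CXCR2. Fibroblasts are known to transcribe such genes under NF-kB after stimulation by IL-1, TNF or tissue injury, and MEF feeder layers supply ES cells with factors such as LIF.

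In the GRCm38 mouse genome with the GENCODE M21 annotation, the genes lay on 3 chromosomes, each on the plus strand. *Ccl2* (ENSMUSG00000035385.5) was at chr11:82035571-82037453 and *Ccl7* (ENSMUSG00000035373.2) at chr11:82045712-82047525, with 8258 bases between them. *Cxcl5* (ENSMUSG00000029371.7) was at chr5:90759360-90761624 and *Cxcl1* (ENSMUSG00000029380.11) at chr5:90891241-90893115, with 129616 bases between them. *Ccl20* (ENSMUSG00000026166.14) stood alone at chr1:83116766-83119167. *Ccl2* and *Ccl7* have 3 exons and the others 4. Only *Ccl2* overlaps another annotated gene, *Gm17268*, and reads from the overlap of the pair may not be told apart. None of the 5 had a UMI counted as ambiguous between genes.

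NF-kB binding letters were looked for in the RefSeq promoters, which run from 250 bases before to 50 bases after a start site on GRCm38.p6. The search covered 2 of the 5 members, *Ccl20* and *Cxcl1*. The letters searched were GGNNTTTCC, on both strands, and they were in 5.82% of all 32851 promoters of this length. At least 2 matches were in 0.253% of them. The *Ccl20* promoter held the NF-kB letters once, 80 to 72 bases before the start on the opposite strand, and the *Cxcl1* promoter at 2 places, 89 to 81 bases before it on the opposite strand and 70 to 62 bases before it on the same strand. The AP-1 letters, TGA and TCA with any base between them, were also searched on both strands, were in 7.81% of all promoters, and were in neither of these. The windows of 30 bases below are shown because they are the shared feature that these letters give, are written 5′ to 3′ on the plus strand at chr1:83116676-83116705, chr5:90891146-90891175 and chr5:90891165-90891194, and have the matched bases in capitals. The *Cxcl1* windows overlap each other, and their matched bases do not.
Ccl20: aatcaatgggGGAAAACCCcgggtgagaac
Cxcl1, first site: ccggttgcagGGAAACACCctgtactccgg
Cxcl1, second site: ctgtactccgGGAATTTCCctggcccggag
These are matches of letters, which do not show that a factor binds there.

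Cells were sorted into fibroblasts and other cells by 3 fibrillar collagen genes, *Col1a1*, *Col1a2* and *Col3a1*. A barcode with at least 500 UMIs was a fibroblast where these genes held at least 0.3% of its UMIs, and another cell otherwise. The wild-type library held 49 fibroblasts among 1857 barcodes (2.64%, interval 1.96 to 3.47) and the knockout library 27 among 1637 (1.65%, 1.09 to 2.39). Wild-type fibroblasts were deeper, with a median of 8122 UMIs against 1975 in the knockout library, and a lower share of their UMIs was mitochondrial, with medians of 1.35% and 3.83%. The other cells had medians of 6112 and 5054.5 UMIs. The barcodes were numbered within each file, so barcodes shared between the libraries could not be counted.

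The gate was checked against markers it did not use. Among 21 further fibroblast markers, 19 of the 21 tested in wild-type cells and 16 of the 18 tested in knockout cells were at least 4-fold higher in the fibroblasts than in the other cells, beside 10.6% of 16712 and 12.0% of 16164 genes tested. *Sparc*, a collagen-binding matrix protein, was at 8104 and 7097 CPM (UMIs per 1000000 UMIs) in the fibroblasts of the wild-type and knockout libraries in turn, against 262 and 273 CPM in the other cells, and pairs of values below keep this order. The 10 ES markers were all at least 4-fold lower in fibroblasts in both libraries, as were 8.83% of 16712 and 5.24% of 16164 genes tested, with summed levels of 305 and 567 CPM against 4515 and 4726 CPM. Of the 132 and 68 UMIs behind the fibroblast levels, 3 wild-type fibroblasts held 55, 30 and 16, and 2 knockout fibroblasts held 38 and 10. These cells held 15 and 16 chemokine UMIs, and whether they were mixed droplets was not tested. Leukocytes are another known source of these chemokines. Macrophage markers summed to 39.3 and 58.4 CPM in fibroblasts and 27.7 and 39.2 CPM in other cells. Of 14 macrophage markers 5 had a UMI in wild-type fibroblasts and 3 in knockout fibroblasts, 17 and 7 UMIs in all, of which *Csf1r* gave 13 and 5, in 10 and 5 cells. Their part in the chemokine levels was not tested. *Cd14*, *Lyz2*, *Tyrobp*, *Fcer1g*, *Aif1*, *Spi1*, *C1qa* and *Mrc1* were at 0 UMIs in the fibroblasts of both libraries. Among 6 endothelial markers *Pecam1* had 28 and 10 fibroblast UMIs, or 64.7 and 83.4 CPM against 71.7 and 113 CPM in the other cells. *Tie1* had 3 and 1 fibroblast UMIs, *Kdr* 0 and 1, and *Cdh5*, *Tek* and *Cldn5* 0. On these few UMIs *Tie1* in the wild-type and *Kdr* in the knockout library were at least 4-fold higher in fibroblasts. Among 7 primitive endoderm markers *Gata6* had 29 and 0 fibroblast UMIs, *Dab2* 8 and 1, *Sox7* and *Amn* 1 UMI each over both libraries, and *Gata4*, *Sox17* and *Foxa2* 0. *Gata6* and *Dab2*, the markers tested, were 4-fold higher in wild-type fibroblasts than in other cells. *Lin28a* itself had 3 and 2 UMIs in the fibroblasts, and in the other cells it was at 111 and 36.8 CPM.

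*Ccl2*, which encodes the main monocyte attractant MCP-1, was the most abundant of the set in both libraries. It had 201 UMIs in wild-type fibroblasts, or 464 CPM (402 to 533), and 51 UMIs in knockout fibroblasts, or 425 CPM (317 to 559). inDrop primes at the poly(A) tail and counts each captured transcript once, so levels of different genes are compared here as CPM without division by length. It was found in 26 of 49 wild-type fibroblasts (53.1%) and in 7 of 27 knockout fibroblasts (25.9%). The highest single cells held 36 and 23 of its UMIs.

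*Ccl7*, which encodes the related monocyte attractant MCP-3, followed closely. Wild-type fibroblasts had 157 UMIs of it, or 363 CPM (308 to 424), and knockout fibroblasts 39, or 325 CPM (231 to 445). It was found in 26 of 49 and 8 of 27 fibroblasts. The intervals of *Ccl2* and *Ccl7* overlapped in each library.

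The neutrophil attractants *Cxcl1* and *Cxcl5* had 57 UMIs each in wild-type fibroblasts, which is 132 CPM (99.7 to 171) for both. In knockout fibroblasts *Cxcl1* was at 217 CPM (142 to 318) from 26 UMIs and *Cxcl5* at 234 CPM (155 to 337) from 28 UMIs. *Cxcl1* was spread over more cells than *Cxcl5*, 15 against 10 of the 49 wild-type and 7 against 5 of the 27 knockout fibroblasts. *Cxcl5* was concentrated, with 63.2% and 92.9% of its UMIs in the 3 richest cells of each library. *Ccl20* was more so, with 83.3% and 100%. For *Ccl2*, *Ccl7* and *Cxcl1* the shares were 39.3%, 43.3% and 49.1% in wild-type and 80.4%, 76.9% and 76.9% in knockout fibroblasts.

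*Ccl20*, which encodes the ligand of CCR6, was the rarest. It had 48 UMIs in wild-type fibroblasts, or 111 CPM (81.8 to 147), and 5 UMIs in knockout fibroblasts, or 41.7 CPM (13.5 to 97.3). It was found in 7 of 49 and 2 of 27 fibroblasts, and a single wild-type cell held 29 of the 48 UMIs. By CPM the order was *Ccl2*, *Ccl7*, *Cxcl1* level with *Cxcl5*, then *Ccl20* in the wild-type library, and *Ccl2*, *Ccl7*, *Cxcl5*, *Cxcl1*, then *Ccl20* in the knockout library. Neighbors in these orders had overlapping intervals, except *Ccl7* against *Cxcl1* and *Cxcl5* in wild-type and *Cxcl1* against *Ccl20* in knockout fibroblasts.

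**Figure D1:**
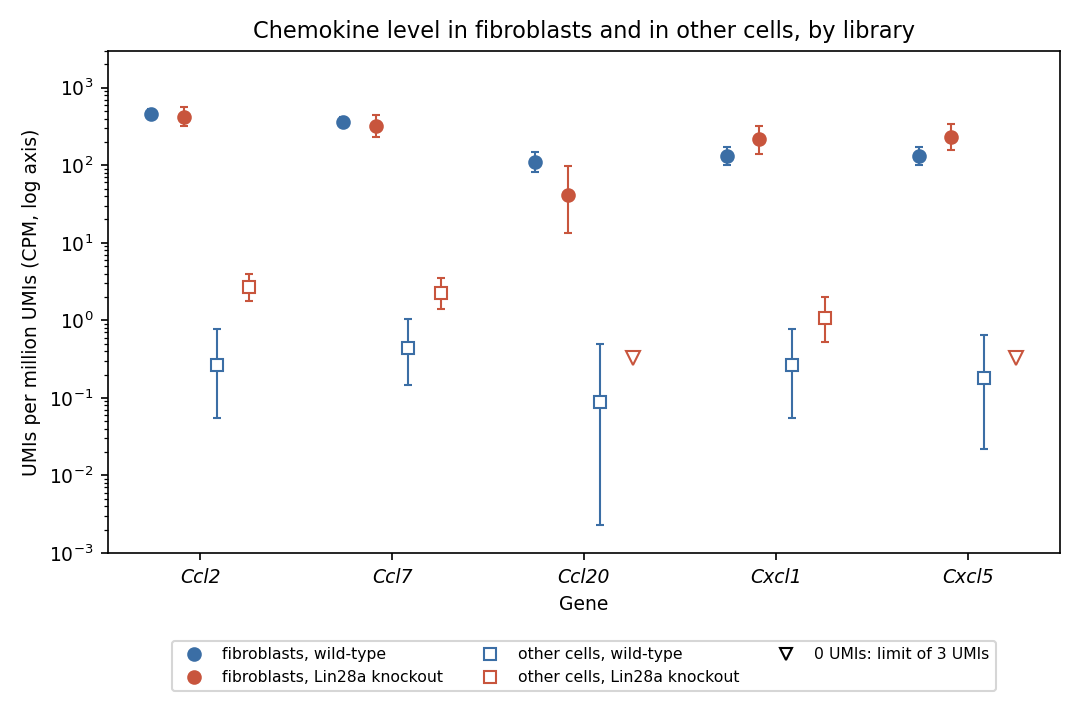
Level of each chemokine, in CPM on a log axis, in fibroblasts (filled circles) and other cells (open squares) of the wild-type (blue) and Lin28a knockout (red) libraries, with 95% Poisson intervals; triangles mark the limit of 3 UMIs where none was counted. Fibroblast levels lie between 41.7 and 464 CPM and other cells at or below 2.71 CPM.

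Together the 5 genes held 520 UMIs in wild-type fibroblasts, 1201 CPM (1100 to 1309), and 149 UMIs in knockout fibroblasts, 1243 CPM (1051 to 1459). As a mean over cells, which weights each fibroblast equally, the levels were 934 and 602 CPM, and 1 knockout cell gave 56 of the 149 UMIs. *Ccl2* and *Ccl7* made up 38.7% and 30.2% of the wild-type sum and 34.2% and 26.2% of the knockout sum. At least 1 of the 5 was found in 32 of 49 wild-type fibroblasts (65.3%, 50.4 to 78.3) and 12 of 27 knockout fibroblasts (44.4%, 25.5 to 64.7). Shares of this kind depend on depth. Taken at 500 UMIs per cell they were 29.1% and 19.5%, and in other cells 0.0578% and 0.158%.

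In the other cells the set was at a few CPM or less. The wild-type library had 14 UMIs in 14 of 1808 other cells (0.774%), a level of 1.25 CPM (0.683 to 2.10), spread over *Ccl2* (3), *Ccl7* (5), *Ccl20* (1), *Cxcl1* (3) and *Cxcl5* (2) with never more than 1 in a cell. The knockout library had 56 UMIs in 14 of 1610 other cells (0.870%), a level of 6.06 CPM (4.58 to 7.87). Of these, *Ccl2* had 25, *Ccl7* 21 and *Cxcl1* 10, while *Ccl20* and *Cxcl5* had 0 UMIs. Their upper bounds were 0.399 CPM and, for the share of cells with a UMI, 0.229%. Collagen UMIs were also found in other cells, and per 1000 of them the wild-type library had 65.8 chemokine UMIs in fibroblasts, 56.2 in other cells and 30.4 in barcodes under 500 UMIs. The part of free RNA from fibroblasts in these values was not tested.

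Most of the knockout signal outside the gate came from a pair of barcodes below the collagen limit. One held 38 of the 56 UMIs, 22 of *Ccl2*, 13 of *Ccl7* and 3 of *Cxcl1*, among 18430 UMIs with a collagen share of 0.244%. It had UMIs of 16 of the 21 further fibroblast markers, among them 65 of *Sparc* and 21 of the mesenchymal factor *Prrx1*, and 3 of ES markers. The other held 6 chemokine UMIs among 5069, a collagen share of 0.118%, 7 of the 21 fibroblast markers and no ES marker UMI. Neither had more than 2 UMIs of macrophage markers. The pair was singled out for holding 2 or more chemokine UMIs, so the 1.30 CPM (0.673 to 2.28) of the other cells without it, 12 UMIs in 12 cells, is low by that choice. The chemokine UMIs per 1000 collagen UMIs of all knockout other cells, 219, rest on the same pair.

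Set against the other cells, the summed level in fibroblasts was 962 times as high (568 to 1771) in wild-type cells. At a collagen limit of 1% this was 296 times (224 to 396), and with a gate on cells of at least 2000 UMIs with under 0.05% of them on ES markers, in place of collagen, 493 times (339 to 743). In knockout cells it was 205 times as high (150 to 284), 895 times (501 to 1762) at a collagen limit of 0.1% and 525 times (349 to 819) with the ES marker gate. For single genes of the wild-type library, each against 5 or fewer UMIs in the other cells, the ratio was 1735 for *Ccl2* (585 to 8483), 813 for *Ccl7* (341 to 2539), 1243 for *Ccl20* (213 to 50098), 492 for *Cxcl1* (160 to 2456) and 738 for *Cxcl5* (195 to 6240). In the knockout library it was 157 for *Ccl2*, 143 for *Ccl7* and 200 for *Cxcl1*. The pair of barcodes held 23 of the 25 *Ccl2*, 18 of the 21 *Ccl7* and 3 of the 10 *Cxcl1* UMIs behind these ratios. *Cxcl5* and *Ccl20* had 0 UMIs in the knockout other cells, and the lower limits of their ratios were 547 and 70.6. All 5 genes in the wild-type library and the 4 with at least 20 UMIs in the knockout library were at least 4-fold higher in fibroblasts, as were 10.6% of 16712 and 12.0% of 16164 genes tested. Since the genes were chosen for this contrast, nothing is read from these counts. In all, the fibroblasts held 95.6% of the 544 chemokine UMIs of the wild-type library and 66.5% of the 224 of the knockout library.

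The level was low in cells without collagen and higher in those past the limit, but it did not rise evenly with the collagen share. In wild-type cells it was 1.03 CPM with no collagen UMI, 2.77 CPM above 0 to 0.1%, 383 CPM at 0.3 to 1%, 1606 CPM at 1 to 3% and 973 CPM at 3% and over. The 19 wild-type cells at 0.1 to 0.3% had 0 chemokine UMIs in 15380, at a median depth of 588 UMIs. In the knockout library the steps, with 0.1 to 0.3% included, gave 1.13, 2.41, 973, 430, 1123 and 2805 CPM. The 973 CPM at 0.1 to 0.3% rests on the pair of barcodes described above. At 3% and over, 2 of the 5 knockout cells held all 75 chemokine UMIs. Of the 5 barcodes nearest the limit on each side, the wild-type ones had 0 chemokine UMIs inside (collagen shares 0.304 to 0.364%) and 0 outside (0.190 to 0.266%), and the knockout ones 1 UMI inside (0.334 to 0.702%) and 38 outside (0.198 to 0.290%). Within the fibroblasts, the Spearman correlation of the summed chemokine level with the collagen share was 0.43 over 49 wild-type and 0.08 over 27 knockout cells.

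**Figure D2:**
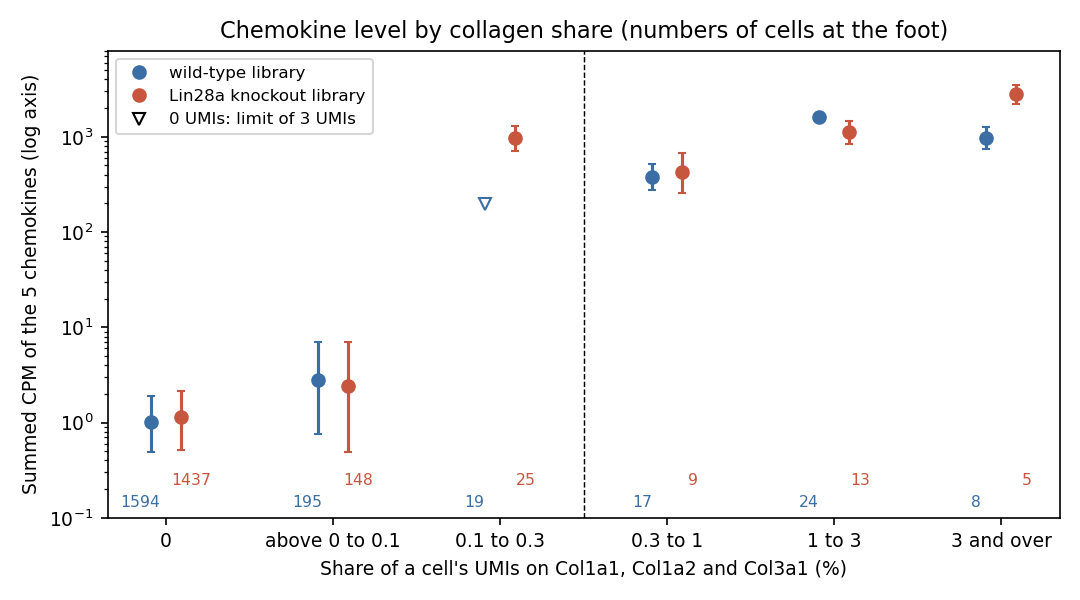
Summed CPM of the 5 chemokines on a log axis, with 95% Poisson intervals, in cells grouped by the share of their UMIs on Col1a1, Col1a2 and Col3a1; numbers of cells stand at the foot and the dashed line is the 0.3% limit. The level is near 1 CPM in cells with no collagen UMI and 383 CPM or more to the right of the limit.

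Nearly all chemokine UMIs of the fibroblasts were in the deep ones. In the wild-type library the 38 fibroblasts with at least 5000 UMIs held 519 of the 520 UMIs, 1253 CPM (1148 to 1366), and 31 of them had a chemokine UMI. They also held most UMIs of all genes, 414197 of the 432862 in wild-type fibroblasts. The 4 fibroblasts with 2000 to 5000 UMIs held 1 UMI, and the 7 below 2000 held 0 in 5982, with an upper bound of 617 CPM. In the knockout library the 9 fibroblasts with at least 5000 UMIs held 146 of the 149 UMIs, 1587 CPM (1340 to 1866), and all 9 had one. Of the UMIs of all genes they held 92014 of 119912. The 14 below 2000 UMIs held 2 UMIs, 122 CPM (14.8 to 442), and the 4 between held 1. The upper bounds of the shallow fibroblasts, 617 and 442 CPM, were below the lower bounds of the deep ones, 1148 and 1340 CPM. These bounds hold counting error only, and cells varied far more. Over all fibroblasts the variance of the chemokine UMIs was 22.9 and 28.2 times their mean. A difference between shallow and deep cells was not tested. The shallow knockout fibroblasts also differed in other measures. Their median mitochondrial share was 10.2% against 0.575% in the deep ones, and their further fibroblast markers summed to 9429 against 25909 CPM, while collagen was at 23082 against 16834 CPM. In the wild-type library the shallow and deep shares were 2.36% and 1.28%, the marker sums 4681 and 26149 CPM, and collagen 10866 and 18465 CPM. The part of damaged cells or of free collagen RNA in the gate was not tested.

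**Figure D3:**
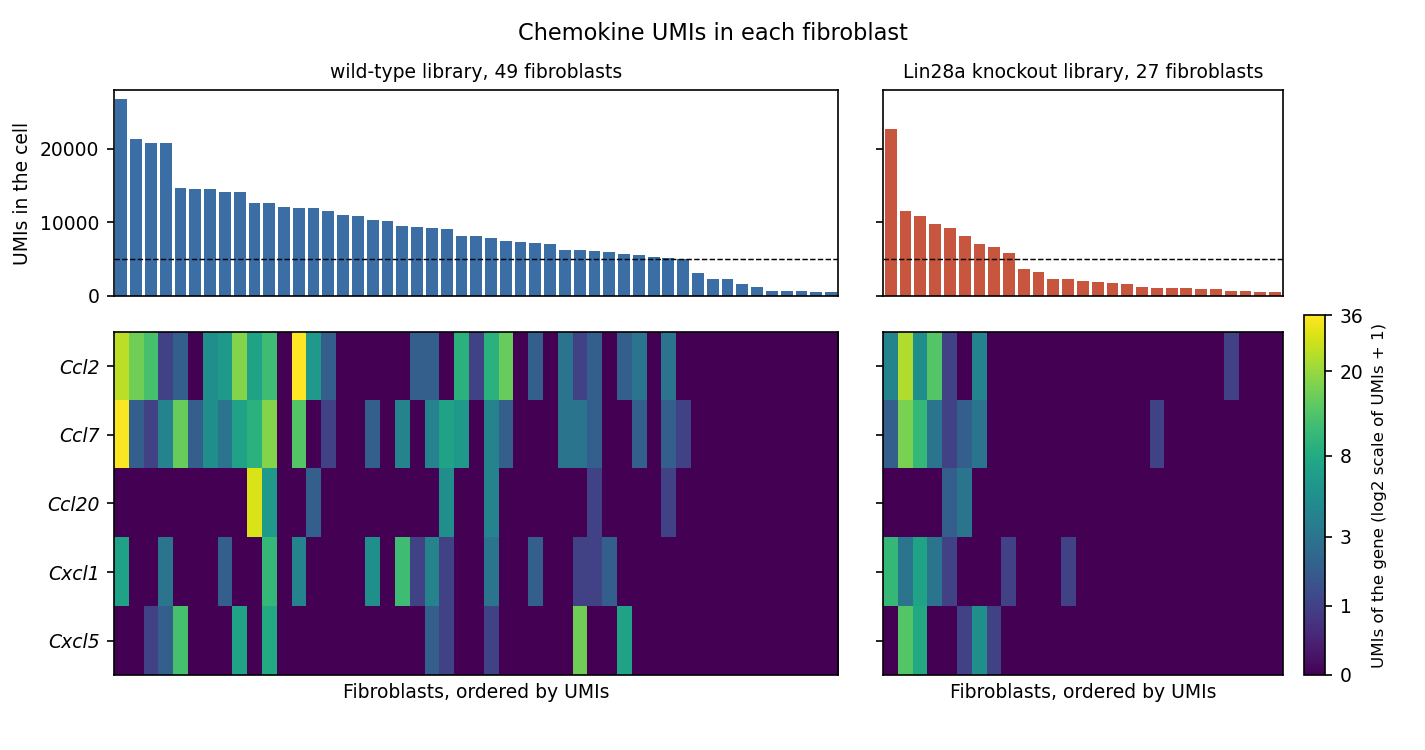
UMIs of each chemokine in every fibroblast of the wild-type (left, 49 cells) and Lin28a knockout (right, 27 cells) libraries, ordered by the cell's UMIs, which the bars show with a dashed line at 5000. Nearly all colored fields belong to cells above the line, and Ccl2 and Ccl7 fill the most columns.

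Many fibroblasts held several of the chemokines. The wild-type fibroblasts had none of the 5 in 17 cells, 1 in 4, 2 in 13, 3 in 8, 4 in 5 and all 5 in 2 cells. The knockout fibroblasts had none in 15, 1 in 5, 3 in 4 and 4 in 3 cells, with no cell at 2 or 5. At least 2 were found in 28 of 49 (57.1%, 42.2 to 71.2) and 7 of 27 (25.9%, 11.1 to 46.3). Among fibroblasts with at least 5000 UMIs the shares were 73.7% (56.9 to 86.6) of 38 and 77.8% (40.0 to 97.2) of 9, the opposite order. Depth stood beside this, since wild-type cells with none had a median of 2342 UMIs and those with 2 had 9310. At 500 UMIs per cell the shares with at least 2 were 7.29% and 4.89%, and at 1000 UMIs, with shallower cells left out, 18.7% of 44 and 12.3% of 22 cells.

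*Ccl2* and *Ccl7* were the pair found together most often. They were also the genes found in the most wild-type fibroblasts, 26 of 49 each, which by itself raises their shared count. In the wild-type fibroblasts 21 cells had both, 5 *Ccl2* alone, 5 *Ccl7* alone and 18 neither, with medians of 12026, 8122, 9576 and 2709 UMIs. Among the 38 deep wild-type fibroblasts, where depth varied less, the numbers were 21, 5, 4 and 8, and the 8 cells with neither had a median of 8740 UMIs. In the knockout library 6 cells had both, 1 *Ccl2* alone, 2 *Ccl7* alone and 18 neither.

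*Cxcl1* and *Cxcl5* shared cells with *Ccl2* and *Ccl7*, which were themselves in 26 and 25 of the 38 deep wild-type fibroblasts and 6 and 7 of the 9 deep knockout ones. In the wild-type library 11 of the 15 cells with *Cxcl1* and 9 of the 10 with *Cxcl5* had *Ccl2*, and 12 and 9 of them had *Ccl7*. Both CXC genes were in 6 cells, *Cxcl1* alone in 9, *Cxcl5* alone in 4 and neither in 30. Among knockout fibroblasts both were in 2 cells, *Cxcl1* alone in 5, *Cxcl5* alone in 3 and neither in 17, and none of its 9 deep fibroblasts lacked both. *Ccl20* was with *Ccl2* in 6 of its 7 wild-type cells and 1 of its 2 knockout cells. In the knockout library *Cxcl1* was with each of *Ccl2* and *Ccl7* in 5 of its 7 cells, and *Cxcl5* with *Ccl2* in 3 and with *Ccl7* in 4 of its 5. These are descriptions of cells of 1 library each, which share their source.

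**Figure D4:**
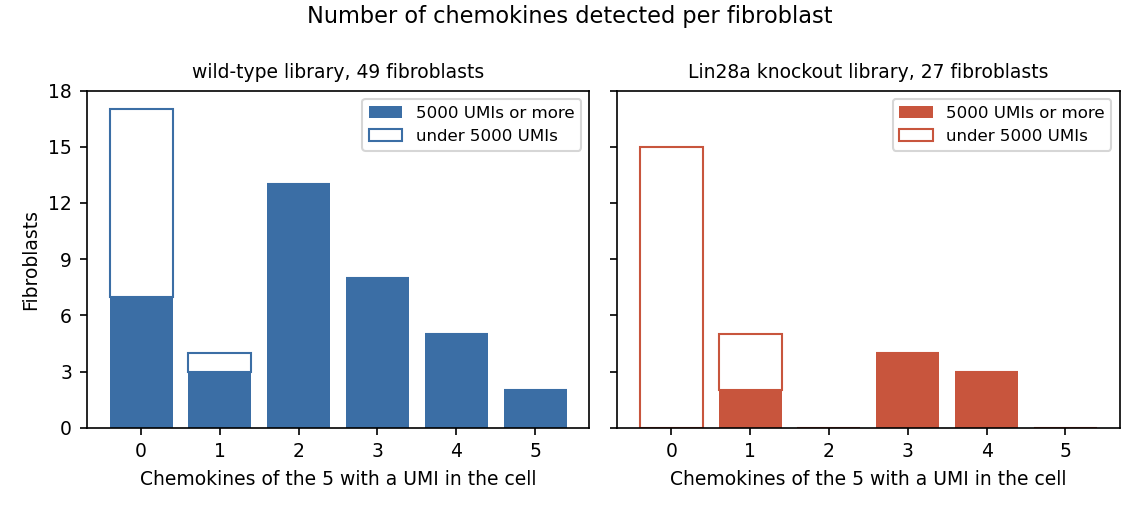
Number of fibroblasts by how many of the 5 chemokines had a UMI in the cell, in the wild-type and Lin28a knockout libraries, with cells of at least 5000 UMIs filled and shallower cells open. The 28 wild-type and 7 knockout cells with 2 or more chemokines are all among the filled bars.

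Cells differed in which chemokine led. Of the 32 wild-type fibroblasts with a chemokine UMI, *Ccl2* led in 14, *Ccl7* in 7, *Cxcl1* in 3, *Cxcl5* in 2 and *Ccl20* in 1, with 5 ties. Of the 12 knockout ones *Ccl2* and *Cxcl1* led in 3 each and the others in 2 each. Some of these cells held 1 chemokine UMI, which alone set the leader. Among 18 wild-type cells with at least 10 chemokine UMIs, *Ccl2* led in 8, *Ccl7* in 5 and the others in 1 each, with 2 ties. Of 5 such knockout cells, *Ccl2* led in 2, *Ccl7*, *Cxcl1* and *Cxcl5* in 1 each and *Ccl20* in 0. Examples show the range. The wild-type cell with the most, 67 UMIs among 26809, had 35 of *Ccl7*, 25 of *Ccl2* and 7 of *Cxcl1*. A cell of 12026 UMIs had 36 of *Ccl2*, 13 of *Ccl7* and 4 of *Cxcl1*, the highest level of the wild-type cells at 4407 CPM. Another, of 12678 UMIs, had 29 of *Ccl20*, 9 of *Ccl7* and 7 of *Ccl2*, and one of 6183 UMIs had 16 of *Cxcl5* among 21. In the knockout library the leading cell held 56 of the 149 UMIs, 23 of *Ccl2*, 17 of *Ccl7*, 13 of *Cxcl5* and 3 of *Cxcl1*, so the level of that library rests on few cells, 3 of which gave 70.5% of the UMIs.

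Not every deep fibroblast had a chemokine. Of the 38 wild-type ones 7 had none, at a median of 10205 UMIs against 9576 in the 31 with one. These 7 were picked for having none, so their chemokine level says nothing of other cells. Their collagen was lower, 9094 against 20174 CPM, with 5 of the 7 under a collagen share of 1%, while the further fibroblast markers summed to 22821 and 26756 CPM and the secreted inflammatory factors to 4524 and 5535 CPM. *Saa3*, an acute-phase protein, was at 2254 CPM in the 7 and 1821 CPM in the 31. *Csf1*, the macrophage growth factor, was at 78.3 against 534 CPM and *Cxcl10* at 0 UMIs, which allows up to 47.0 CPM, against 85.6 CPM. *Lif* went the other way, at 407 against 237 CPM, while *Ptgs2* (235 and 248 CPM) and *Cxcl12* (110 and 137 CPM) differed less. The split into these groups and the genes named after *Saa3* were chosen after values were seen.

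Between the libraries the summed level was 1.03 times as high in knockout as in wild-type fibroblasts, with an interval that spans 1 (0.856 to 1.24). *Ccl2* (0.916, 0.660 to 1.25) and *Ccl7* (0.897, 0.615 to 1.28) had intervals that span 1, as did *Cxcl1* (1.65, 0.994 to 2.66). *Cxcl5* was 1.77 times as high (1.09 to 2.83) and *Ccl20* 0.376 times (0.117 to 0.940) in the knockout library. Both moved with single cells in their value or interval. Without the fibroblast of each library that held the most chemokine UMIs, *Cxcl5* was at 0.986 times (0.519 to 1.77), *Ccl20* at 0.390 times (0.121 to 0.976) and *Ccl2* at 0.596 times (0.385 to 0.892). Without the fibroblast of each library with the most UMIs of the gene itself, *Cxcl5* was at 1.44 times (0.741 to 2.66) and *Ccl20* at 0.396 times (0.0447 to 1.64). Of the 5 genes 0 were at least 2-fold higher and 1, *Ccl20*, at least 2-fold lower in the knockout library, beside 6.79% higher and 13.4% lower among 4978 genes. The median ratio over those genes was 0.984. Among the fibroblasts with at least 5000 UMIs, 38 and 9 cells, the sum was 1.27 times as high (1.05 to 1.52), *Ccl2* 1.12 (0.804 to 1.53), *Ccl7* 1.10 (0.748 to 1.57), *Ccl20* 0.469 (0.146 to 1.17), *Cxcl1* 1.97 (1.18 to 3.21) and *Cxcl5* 2.21 times (1.35 to 3.54). There *Ccl20* had an interval that spans 1, and *Cxcl1* did not. A single deep knockout fibroblast held 10 of the 26 *Cxcl1* UMIs and 38 of the 68 ES marker UMIs of the knockout fibroblasts. Over all fibroblasts, *Cxcl1* was at 1.51 times (0.801 to 2.73) without the cell of each library richest in it. Without the cell of each library richest in chemokine UMIs, *Cxcl1* was at 1.72 times (1.004 to 2.88). Such ratios are not given here for the deep fibroblasts alone. Without the richest cell of each library the sum was 0.770 times as high (0.609 to 0.964), so the order of the libraries turned with the choice of cells. The intervals hold no spread between cultures, and the number, batch and state of the feeder cells cannot be told apart from the clone.

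Few other chemokines were at the level of the set. Of the 18 other CC genes, 5 had a UMI in wild-type and 3 in knockout fibroblasts, with 28 and 5 UMIs in all. None of those tested (2 and 1) was 4-fold higher in fibroblasts, beside 10.6% and 12.0% of all genes. Nothing is read from this either, since the genes tested reached the minimum of UMIs mainly through the other cells. In the wild-type library they had 5 and 2 fibroblast UMIs against 78 and 18 in other cells. *Ccl5*, an attractant of T cells, gave 16 of the 28 UMIs, or 37 CPM, and had 0 in knockout fibroblasts, which allows up to 25.0 CPM. It had too few UMIs to be among the genes tested. In the wild-type other cells it had 2 UMIs, or 0.178 CPM, a ratio of 207 (48.7 to 1857). Its wild-type fibroblast UMIs were in 2 cells, and the knockout other cells had 4 UMIs of it. Of 15 other CXC, C and CX3C genes, 6 had a UMI in wild-type and 7 in knockout fibroblasts, with 113 and 45 UMIs in all. All 4 of those tested in the wild-type library were at least 4-fold higher in fibroblasts, with a median ratio of 124, beside 10.6% of all genes. Of them, *Cxcl10* and *Cxcl12* reached 20 UMIs only through the fibroblasts. Another had 3 fibroblast UMIs and, without the 0.5 added to each count, a ratio of 3.70 (0.706 to 12.4). Nothing is read from this count. In the knockout library 0 could be tested. A higher level in fibroblasts was also seen outside the set, since in the wild-type other cells *Cxcl12* was at 0.535 CPM and *Cxcl14* at 1.43 CPM. *Cxcl12*, which retains blood stem cells in the marrow, was at 127 and 66.7 CPM, *Cxcl10*, a chemokine induced by interferon, at 69.3 and 75.1 CPM, and *Cxcl14* at 39.3 and 58.4 CPM. *Cxcl2*, the close relative of *Cxcl1*, had 6 UMIs in wild-type and 18 in knockout fibroblasts, 13.9 and 150 CPM, a ratio of 10.8 (4.12 to 33.3) that rests on 4 and 2 cells.

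Chemokine receptors summed to 87.8 and 117 CPM in fibroblasts and 50.4 and 54.8 CPM in other cells. Of 23 chemokine receptors 7 had a UMI in wild-type and 4 in knockout fibroblasts. *Xcr1*, the receptor of the C chemokines, had 24 UMIs in 22 wild-type fibroblasts and 5 in 4 knockout fibroblasts, or 55.4 and 41.7 CPM, against 15.5 and 12.0 CPM in the other cells. *Ccr2*, the receptor of *Ccl2* and *Ccl7*, had 9 and 14 UMIs in all other cells of the libraries and *Ccr6*, the receptor of *Ccl20*, 4 and 9. *Cxcr2*, the receptor of *Cxcl1* and *Cxcl5*, was at 18.5 and 58.4 CPM in the fibroblasts, from 8 and 7 UMIs, and 17.7 and 24.8 CPM in the other cells.

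Secreted inflammatory factors were also higher in the fibroblasts. Of 33 genes, 13 of 16 tested in wild-type and 11 of 14 tested in knockout cells were at least 4-fold higher in fibroblasts, beside 10.6% and 12.0% of all genes, and 0 was 4-fold lower. The median ratios were 26.9 and 12.9. *Saa3* was highest at 1966 and 1001 CPM, and also stood at 236 and 114 CPM in the other cells. *Csf1* stood at 460 and 275 CPM, *Ptgs2*, which makes prostaglandins, at 247 and 250 CPM, and *Timp1*, an inhibitor of metalloproteinases, at 568 and 667 CPM. *Lif*, which encodes the factor that keeps mouse ES cells undifferentiated and that the medium also held, was at 254 CPM (110 UMIs) and 492 CPM (59 UMIs), against 4.10 and 11.7 CPM in the other cells. *Il6* had 19 and 2 UMIs, and *Tnf*, *Il1a* and *Il1b* had 0 in the fibroblasts of both libraries.

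NF-kB genes were higher in fibroblasts for the most part, with median ratios to the other cells of 4.21 and 7.17, against 0.998 and 1.18 over all genes tested. Of 29 targets and components, 13 of 25 tested in wild-type and 13 of 22 tested in knockout cells were at least 4-fold higher in fibroblasts, beside 10.6% and 12.0% of all genes, and 0 was 4-fold lower. *Nfkbia*, the inhibitor that NF-kB itself induces, was at 402 and 650 CPM in fibroblasts and 49.8 and 63.0 CPM in other cells. *Nfkb1*, which encodes the p50 subunit, was at 215 and 509 CPM against 51.3 and 55.1 CPM. The immediate early gene *Ier3* was at 441 and 567 CPM and *Cebpb*, a factor of inflammatory transcription, at 605 and 342 CPM, whereas *Sod2*, a mitochondrial superoxide dismutase, was lower in fibroblasts, at 127 and 158 CPM against 275 and 250 CPM. *Irf1* had 1 and 0 fibroblast UMIs against 8.65 and 10.2 CPM in the other cells, and *Rela* had 5 and 4. Of 18 interferon response genes 10 of 15 tested and 7 of 12 tested were 4-fold higher, beside 10.6% and 12.0% of all genes, and 0 was 4-fold lower. *Isg15* was at 192 and 309 CPM against 1.43 and 6.61 CPM in the other cells, and *Ifit1* at 192 and 142 CPM against 0.625 and 1.73 CPM. *Ddx58* was at 143 and 33.4 CPM against 68.0 and 67.8 CPM, so it was lower in the knockout fibroblasts.

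**Figure D5:**
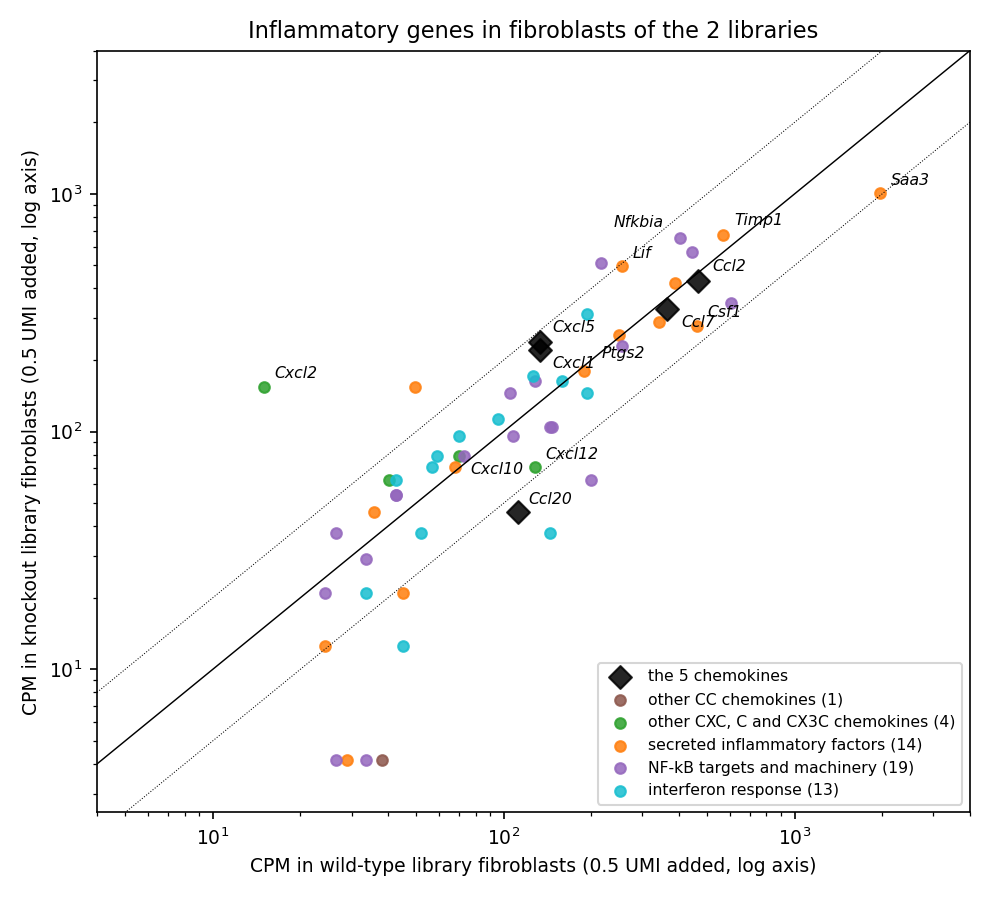
Fibroblast level in the wild-type (x axis) against the Lin28a knockout library (y axis), in CPM with 0.5 UMI added, on log axes, for the 5 chemokines (black diamonds) and listed inflammatory genes with at least 10 fibroblast UMIs in a library; the solid line marks equal levels and the dotted lines 2-fold differences. Ccl2 and Ccl7 lie near the solid line, Ccl20 outside the lower dotted line, and Cxcl2 far above the upper one.

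The fibroblasts as a whole, with or without a chemokine UMI, had low levels of proliferation genes. All 12 proliferation genes were at least 4-fold lower in wild-type fibroblasts than in other cells, and 7 of 12 in knockout fibroblasts, beside 8.83% and 5.24% of all genes, with *Mki67* at 4 and 3 UMIs. *Cdkn1a*, which encodes the cell cycle inhibitor p21, was at 2888 and 1743 CPM against 227 and 213 CPM in the other cells. Among the deep wild-type fibroblasts, the proliferation genes summed to 254 CPM in those with a chemokine UMI and 157 CPM in those without, and *Cdkn1a* was at 2715 and 4007 CPM. Whether the feeder cells had been arrested before use was not given in the sources used here.

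Among the 324 genes with at least 50 UMIs and 10 cells in the fibroblasts of each library, those whose level across fibroblasts was most like the summed chemokines were ranked by the mean of the 2 Spearman correlations of log2(CPM + 100). The first 10 were *Serpinh1* (0.51 over 49 wild-type and 0.62 over 27 knockout fibroblasts), *Ifitm3*, *Rpl7a-ps11*, *Gm6977*, *Sparc* (0.62 and 0.41), *Ier3* (0.27 and 0.74), *Anxa2*, *Esd*, *Ctsb* and *Rpl13a*. These correlations share the depth of the cells. The summed chemokine level itself correlated with a cell's UMIs at 0.48 and 0.64, the median gene of the 324 stood at a mean of 0.28, and the pseudogene names may share reads with their parent genes. The gate collagens *Col3a1*, *Col1a2* and *Col1a1* ranked 116, 210 and 224 of 324, *Lif* 28 and *Saa3* 300.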

How the data were processed

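Each of the 2 libraries was deposited as raw UMI counts per gene and barcode. The authors made these count matrices with a published inDrop pipeline; the submitters' processing notes name mm10 and Seurat 2.3.4, and the aligner and annotation of these libraries were not given in the sources used here. The wild-type library held 12079546 UMIs in 4329 barcodes and the knockout library 10027710 in 6060. Gene names came from GENCODE M21 of GRCm38, in which 54079 of 54146 identifiers matched without their version.

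The 5 genes, the gene lists, the markers and the alternatives were chosen with earlier results of these data known. Levels are CPM of the UMIs summed over cells. They carry exact Poisson intervals, shares carry exact Clopper-Pearson intervals, and ratios have exact conditional intervals for 2 counts, all at 95% and covering counting error only. Where nothing was counted, 3 counts served as the limit, except where an upper bound of the interval is named. No mitochondrial limit was set, and doublets, which Scrublet marked in 25 (1.35%) and 13 (0.794%) cells of the libraries, were removed only as an alternative. Detection at 500 or 1000 UMIs was computed from the hypergeometric distribution. A gene was compared between fibroblasts and other cells with at least 20 UMIs in a library, and between libraries with at least 20 UMIs in the fibroblasts of both together, with 0.5 added to each count. Genes named are the 5, *Lin28a*, genes of the lists with at least 10 fibroblast UMIs in a library, at most 8 per list by fibroblast UMIs, defining markers at 0, and the 10 most alike. *Il6*, *Tnf*, *Il1a*, *Il1b*, *Rela*, *Sod2*, *Irf1*, *Mki67*, *Prrx1*, *Sox7*, *Amn*, *Dab2*, *Csf1r*, *Tie1*, *Kdr* and the receptors were added after their values were seen. One listed secreted factor is counted in its list and is not reported or plotted here by itself. The calculation was tested on simulated data. The software was scanpy 1.11.5 (for Scrublet) and anndata 0.12.19, with matplotlib 3.10.9 for plots and pandas 2.3.3, scipy 1.17.1 and numpy 2.4.6 under Python 3.11.15.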

Additional observations from a re-analysis of the deposited data

Results flagged for a closer look

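Barcodes with fewer than 500 UMIs were left out of the comparisons above, and chemokine UMIs appeared there too. In the wild-type library 2472 such barcodes held 10 chemokine UMIs, a level of 22.8 CPM (10.9 to 41.9), and in the knockout library 4423 held 19, a level of 28.2 CPM (17 to 44.1). Both lie above the 1.25 and 6.06 CPM of the other cells and above the limit that a count of 0 allows. They were spread over 9 and 19 barcodes. *Ccl2* gave 6 and 7 of them and *Ccl7* 1 and 8. Collagen moved with them, with 30.4 and 52.1 chemokine UMIs per 1000 collagen UMIs, against 65.8 and 70.7 in the fibroblasts. The part of free RNA or of broken fibroblasts in this signal was not tested.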

How the results depend on the processing

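No paired analysis was possible because each condition was 1 library and the results come from no test. The ratio of fibroblasts to other cells ranged from 296 to 1034 (wild-type) and 203 to 954 (knockout), for genes chosen for that difference, and the 954 comes from leaving out other cells for their chemokine UMIs. The ratio of the libraries did not keep to one side of 1. The alternatives of 5000 UMIs, of single genes without their richest cells, of other cells with 2 or more chemokine UMIs left out and of a gate by ES markers were added after the data were seen. Values moved as follows, the wild-type library first where both are given.

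The number of fibroblasts was 32 (wild-type) at a collagen limit of 1%, 68 and 52 at 0.1%, and 9 (knockout) with at least 5000 UMIs. Their summed level became 1488 and 1717 CPM at 1%, 934 and 602 CPM as a mean over cells, 1335 CPM (wild-type) with mitochondrial and ribosomal protein genes left out, and, in the knockout library, 859 CPM without the richest fibroblast and 1587 CPM from 5000 UMIs. The other cells stood at 5.04 and 8.08 CPM at 1%, and in the knockout library at 1.31 CPM at 0.1% and 1.30 CPM without those with 2 or more chemokine UMIs. The ratio of fibroblasts to other cells was 296 (wild-type) at 1%, and in the knockout library 895 at 0.1% and 954 without those cells. The ratio of the libraries was 0.770 (0.609 to 0.964) without the richest cells, 0.645 as a mean over cells and 1.27 (1.05 to 1.52) from 5000 UMIs, against 1.03. For *Cxcl5* alone the ratio of 1.77 fell below 1, to 0.986, without the richest cells.

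The share of fibroblasts with a chemokine was, in the wild-type library, 47.1% at 0.1%, 81.3% at 1% and 46.5% at 1000 UMIs per cell. It was 29.1% and 19.5% at 500 UMIs per cell and 81.6% and 100% from 5000 UMIs. The share with 2 or more was, in the wild-type library, 41.2% at 0.1%, 75.0% at 1% and 18.7% at 1000 UMIs per cell, 7.29% and 4.89% at 500 UMIs per cell, and 73.7% and 77.8% from 5000 UMIs.

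A gate that used no collagen took cells of at least 2000 UMIs with under 0.05% of them on ES markers. It held 39 cells, all of them fibroblasts of the first gate, and 16 cells, 10 of them such. It gave 1621 CPM in the 16 knockout cells, 2.62 and 3.09 CPM in the rest, ratios of 493 and 525 to the rest and of 1.25 between the libraries, and, in the knockout library, shares of 68.8% with a chemokine and 50% with 2 or more.

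A minimum of 1000 UMIs, the mitochondrial limit, removal of doublets and the move of gated cells with more ES marker than collagen UMIs left each value within its interval. Depth limits the knockout fibroblasts most, where 1 UMI is 8.34 CPM and 14 of 27 cells had under 2000 UMIs.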
